A study of Homo sapiens with 6 samples.

Results

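RNA-Seq of BT549 cells was examined for 9 genes of the p53 and stress response: MDM2, ZMAT3, GADD45A, GADD45B, PLK2, SESN1, SESN3, TP53INP1 and BTG2. They were chosen by symbol from the 58735 gene identifiers of the count table, and no threshold on the values enters that rule, although earlier results of these data were known when the genes were chosen. BT549 is an established human basal-like breast cancer cell line of mesenchymal appearance. Cells in 10 cm dishes received the vehicle DMSO (DMSO control, n = 3) or 200 nM AS1842856 (n = 3), in both groups for 48 h. AS1842856 is a small molecule that keeps the transcription factor FOXO1 from binding DNA, and the study used it to look for direct and indirect targets of FOXO1. In the study, RNAi against FOXO1 lowered LEF1, a gene that rose with the drug. The paper proposes that the drug modulates FOXO1 rather than only inhibiting it. Whether the changes below depend on FOXO1 was not tested. The dose given here is that of the sample labels. The paper's text gives a higher dose, which was not resolved. A single cell line, dose and time were sampled. Replicate letters run from A to C in each group. The replicates were described by the study as biological, and nothing in the labels ties a letter of one group to the same letter of the other.

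Library totals lay between 15289500 and 22981832 counts. Levels are given as counts scaled to library size (CPM) after scaling by TMM, in the order of replicates A, B and C, and comparisons between genes use the deposited FPKM, which is divided by gene length. In bulk RNA, fewer cells that make a transcript and less of it per cell cannot be told apart. Of 12 marker genes, VIM, CD44, CDH2, EGFR and COL1A1 were each above 90 CPM in every library, and ESR1, PGR, EPCAM, CDH1 and PECAM1 had at most 8 counts in any library. Among the 7 markers tested, 6 were lower with AS1842856, KRT18 among them at 33.9 ± 3.47 against 3.45 ± 0.0744 CPM (SD, n = 3). The leukocyte marker PTPRC was higher, at 1.15 ± 0.433 against 3.16 ± 0.480 CPM. The part of these marker changes in the results below was not tested.

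p53 is a transcription factor that is kept low by MDM2 and becomes stable when DNA is damaged. Its target genes halt the cell cycle, promote repair or lead to cell death, and several of them are also switched on by other stress pathways and by FOXO factors. GADD45A and SESN3 are well-known examples of genes that FOXO factors can activate. Among the 9 genes, MDM2 acts on p53 itself, ZMAT3, TP53INP1 and BTG2 act on RNA, autophagy or cell growth, the GADD45 proteins and PLK2 act on stress kinases and the cell cycle, and the sestrins restrain the growth kinase mTORC1.

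AS1842856 treatment was accompanied by a large fall of PLK2, smaller falls of GADD45A and GADD45B, and a modest rise of TP53INP1. MDM2, ZMAT3, SESN1 and SESN3 did not pass the test, and BTG2 was at too few counts to be tested. Thus 4 of the 8 tested genes passed the edgeR quasi-likelihood test at an adjusted p of 0.05, 50% of them, against 56.0% of all 14338 genes tested. In the higher direction there was 1 gene, against 27.6% of all genes, and in the lower direction there were 3, against 28.4%. The share of these genes that changed was thus close to that of all genes tested. In 6 of the 8 the libraries of the 2 groups did not overlap, which held for 59.9% of all genes. Their median log2 fold change was -0.32, and that of all genes was 0.003.

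**Figure D1:**
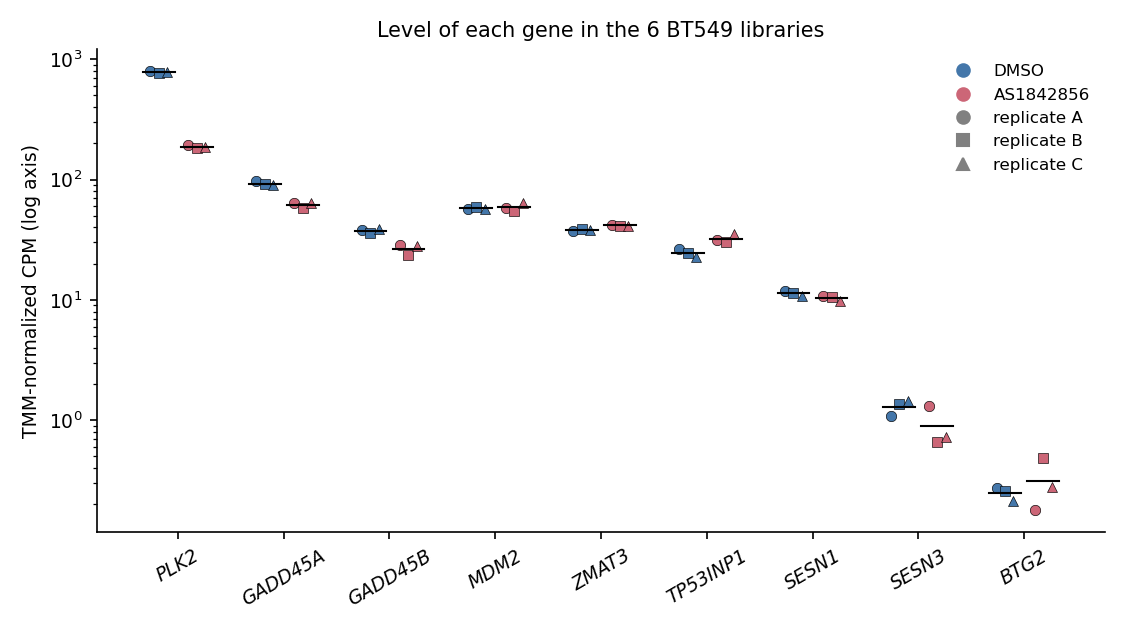
Levels of the 9 genes in each library, in TMM-normalized CPM on a log axis; every point is 1 library, shapes mark replicates A, B and C, colours mark DMSO and AS1842856, and a horizontal line is the mean of 3 libraries. PLK2 lay near 780 CPM in DMSO and near 187 CPM with AS1842856, GADD45A and GADD45B fell by less, and SESN3 and BTG2 were close to or below 1 CPM.

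PLK2 (ENSG00000145632, GRCh38 chromosome 5 from 58453982 to 58460260, minus strand) encodes a polo-like kinase that is quickly induced by stress and growth signals and acts in centriole duplication. Its level in the DMSO libraries was 794.6, 764.7 and 782.0 CPM, and in the AS1842856 libraries it was 192.4, 183.0 and 184.6 CPM. The groups were far apart and the libraries within each were close to one another. PLK2 was thus reduced to 23.9% of the control, a log2 fold change of -2.06 (standard error 0.04, edgeR adjusted p = 1.49e-141). In DMSO it was among the most abundant genes, at the 99.1 percentile of the tested genes by mean CPM. Of the 14338 genes tested, 197 had a lower log2 fold change and 385 had a larger one in either direction.

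The other polo-like kinases did not follow PLK2. PLK1, the main mitotic kinase of the family, stood at 195.6, 200.9 and 209.1 CPM in DMSO and 193.6, 199.9 and 202.9 CPM with AS1842856, with a log2 fold change of -0.02 (95% interval from -0.10 to 0.05). PLK4, which starts centriole duplication, had a log2 fold change of 0.02 (interval from -0.09 to 0.13), and PLK3, a stress-responsive kinase, one of 0.11 (interval from -0.14 to 0.35). PLK5 had 0 counts in every library. The intervals of PLK1, PLK3 and PLK4 do not reach a fall of the size seen for PLK2.

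On the FPKM scale, PLK2 made up 74.8%, 73.6% and 73.6% of the summed polo-like kinase FPKM in the DMSO libraries and 41.7%, 40.1% and 40.0% in the AS1842856 libraries. The family sum itself went from 219.8 ± 3.11 to 95.8 ± 0.675 FPKM (SD, n = 3). PLK1 took 18.4% to 19.7% of the sum in DMSO and 42.0% to 44.1% with AS1842856, so that PLK1 came to be the most abundant family member by FPKM while its own level stayed near 42 FPKM. The log2 ratio of PLK2 to PLK3 FPKM (pseudocount 1) was 5.54 ± 0.06 in DMSO and 3.42 ± 0.02 with AS1842856, a difference of -2.12 (two-sided exact permutation p = 0.10, adjusted p = 0.400 over 4 gene pairs). With 3 libraries against 3, 0.10 is the smallest p this test can give.

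**Figure D2:**
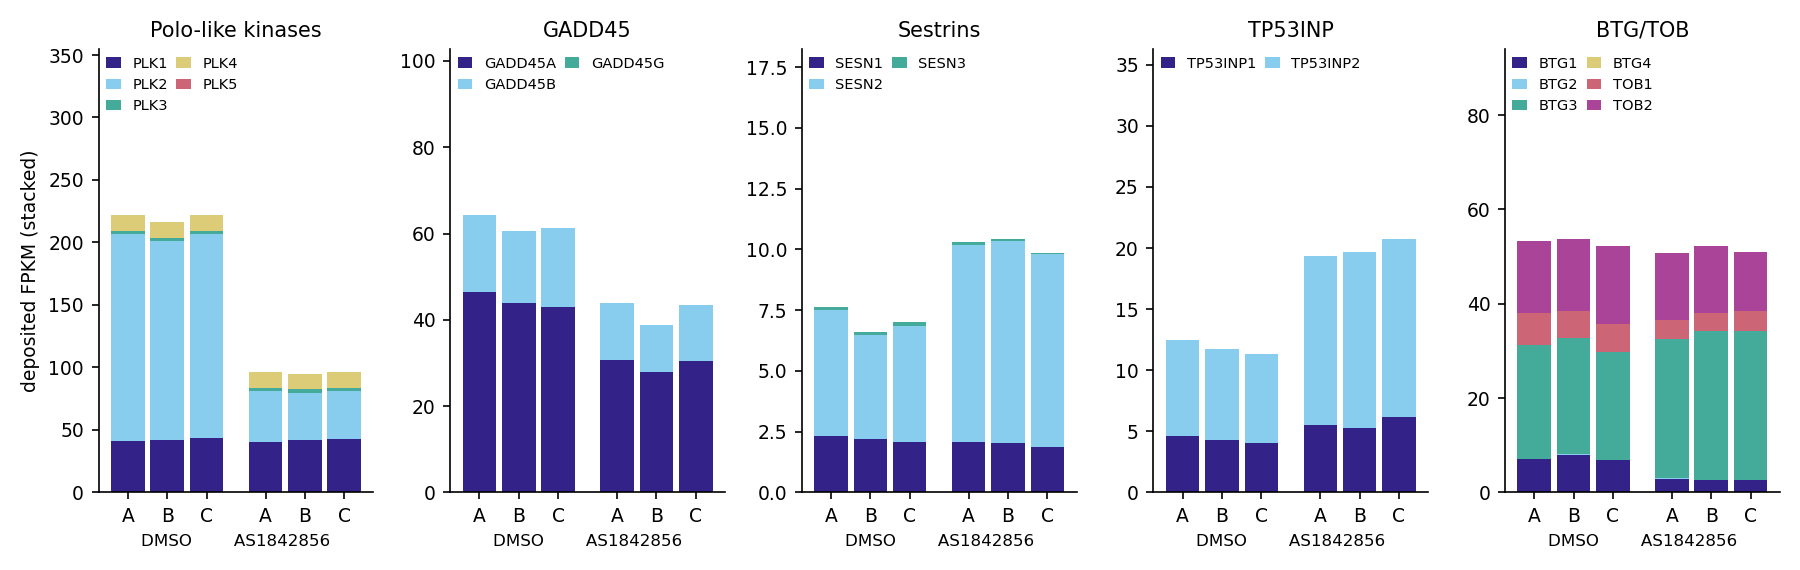
Deposited FPKM of the polo-like kinase, GADD45, sestrin, TP53INP and BTG/TOB families, stacked by gene, with 1 bar for each library of DMSO and AS1842856 and a separate vertical scale for each family. The polo-like kinase bars shrink from about 220 to about 96 FPKM through PLK2, the GADD45 bars have similar proportions at a lower height, and the sestrin and TP53INP bars grow through SESN2 and TP53INP2.

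GADD45A and GADD45B encode small acidic stress proteins that bind PCNA, the CDK1 and cyclin B1 complex and the kinase MAP3K4. GADD45A (ENSG00000116717, chromosome 1 from 67685061 to 67688338, plus strand) was measured at 96.4, 91.7 and 89.4 CPM in DMSO and at 63.7, 58.3 and 63.3 CPM with AS1842856. No treated library reached the lowest control. The log2 fold change was -0.59 (standard error 0.05, edgeR adjusted p = 1.12e-24), or 66.6% of the control. The study names GADD45A as a FOXO1-induced gene that fell in these samples, so its direction here is not independent evidence.

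GADD45B (ENSG00000099860, chromosome 19 from 2476122 to 2478259, plus strand) had 38.2, 35.7 and 39.1 CPM in DMSO and 28.5, 23.5 and 27.9 CPM with AS1842856. Again the groups did not overlap, and AS1842856 replicate B was the lowest of the 6 libraries for both genes. GADD45B fell to 70.2% of the control, a log2 fold change of -0.51 (standard error 0.07, edgeR adjusted p = 6.68e-11). GADD45G, the remaining member of the family, had 2 counts in DMSO replicate C and 0 counts in the other 5 libraries, below the floor of 3 counts per library, which corresponds to 0.131 to 0.196 CPM.

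Per length, GADD45A was the more abundant of the pair in every library. Its share of the GADD45 family FPKM was 70.2% to 72.6% in DMSO and 69.8% to 71.9% with AS1842856, and these ranges overlap. The log2 ratio of GADD45A to GADD45B FPKM was 1.30 ± 0.09 in DMSO and 1.20 ± 0.07 with AS1842856, a difference of -0.10 (two-sided exact permutation p = 0.200, adjusted p = 0.400 over 4 pairs). With 3 libraries against 3 this test could not reach the threshold, so whether the falls of the 2 genes differed is not settled by it. The summed family FPKM went from 62.0 ± 1.90 to 42.1 ± 2.72.

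The promoter of GADD45B is shown because GADD45B fell and its window, unlike that of PLK2, held matches to the motifs searched. The 250 bases before its RefSeq start (chr19:2475877-2476126, plus strand, GRCh38.p14) are printed 5′ to 3′, of which the last 5 lie in the first annotated exon. Capitals mark matches to the E-box CACGTG, the CCAAT box and the TATA box TATAAA, in that order of first appearance and with no overlap between them.
GADD45B: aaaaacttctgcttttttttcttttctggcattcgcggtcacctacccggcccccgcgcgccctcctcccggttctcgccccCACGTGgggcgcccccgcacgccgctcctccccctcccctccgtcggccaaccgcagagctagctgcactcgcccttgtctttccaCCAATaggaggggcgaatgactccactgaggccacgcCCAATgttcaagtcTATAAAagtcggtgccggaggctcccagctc

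Motifs were searched on both strands of the RefSeq windows from 250 bases before to 50 bases after each start, which were at hand for 7 of the 9 genes (not GADD45A and TP53INP1). Genes with several starts had several windows: 4 for MDM2, 3 for SESN1 and 2 for ZMAT3. The shares of all windows are per window, while the matches of these genes are counted per gene. Of all 35116 windows, 7.26% hold CACGTG, 11.5% hold TATAAA and 34.6% hold CCAAT. Among the 7 genes, CACGTG and TATAAA were found in GADD45B alone, and CCAAT was found in 5 genes. The FOXO word GTAAACA (3.42% of all windows), the TCF/LEF words CTTTGAT or CTTTGAA (6.86%) and the CRE word TGACGTCA (1.85%) had 0 matches in the windows of the 7 genes. The AP-1 word TGACTCA (4.95%) was found in MDM2. The PLK2 window held none of the motifs searched. A match is a description of the letters, and a missing match says only that these letters are not in the window.

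MDM2 (ENSG00000135679, chromosome 12 from 68808176 to 68850686, plus strand) encodes the ubiquitin ligase that marks p53 for degradation, and is itself a p53 target, so that the pair form a feedback loop. MDM2 was at 57.2, 59.3 and 56.7 CPM in DMSO and at 57.7, 55.2 and 63.9 CPM with AS1842856. The groups overlapped, with the highest and the lowest value both among the treated libraries. The log2 fold change of 0.03 did not pass the test (edgeR adjusted p = 0.677), and its 95% interval ran from -0.08 to 0.14. Without AS1842856 replicate C the estimate was -0.03. MDM4, a relative that binds and inhibits p53, was at 38.1 ± 1.39 and 41.2 ± 3.74 CPM (log2 fold change 0.11, interval from -0.02 to 0.23). The log2 FPKM ratio of MDM2 to MDM4 differed by -0.06 between groups (two-sided exact permutation p = 0.50, adjusted p = 0.60 over 4 pairs).

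The 3′ part of MDM2 meets CPM, the carboxypeptidase M gene on the opposite strand, over 133 exonic bases. CPM had 102% as many counts as MDM2 over the 6 libraries and fell with AS1842856 from 82.7 ± 2.43 to 35.8 ± 1.49 CPM (log2 fold change -1.21, standard error 0.06). Whether counting used strand is not given in the sources used here, so the reads of the shared bases cannot be assigned with certainty.

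MDM2 is transcribed from an outer promoter and from one within its first intron, and the inner one is known for its pair of p53 response elements. The 250 bases before the inner start (chr12:68808767-68809016, plus strand, GRCh38.p14) are shown 5′ to 3′ because they hold these elements. All 250 lie within the gene and 15 lie in an annotated exon. Capitals mark 2 matches of 20 letters to the p53 consensus site, the first with 2 and the second with 3 mismatches.
MDM2: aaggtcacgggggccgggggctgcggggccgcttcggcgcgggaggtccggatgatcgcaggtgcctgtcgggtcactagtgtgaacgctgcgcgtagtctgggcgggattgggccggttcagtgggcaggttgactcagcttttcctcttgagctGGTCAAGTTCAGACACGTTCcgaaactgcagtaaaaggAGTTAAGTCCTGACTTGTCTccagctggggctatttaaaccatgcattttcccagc

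With up to 3 mismatches allowed, 5.20% of all windows hold such a site. This share is per window, and MDM2 and SESN1 had more windows than the other genes searched. Besides MDM2, such a site was found in SESN1 only, before a start that lies within the SESN1 gene (chr6:109008989-109009238, minus strand, GRCh38.p14, 0 of 250 bases in an annotated exon). The sequence is shown 5′ to 3′ in gene direction, and capitals mark the match, which has 3 mismatches.
SESN1: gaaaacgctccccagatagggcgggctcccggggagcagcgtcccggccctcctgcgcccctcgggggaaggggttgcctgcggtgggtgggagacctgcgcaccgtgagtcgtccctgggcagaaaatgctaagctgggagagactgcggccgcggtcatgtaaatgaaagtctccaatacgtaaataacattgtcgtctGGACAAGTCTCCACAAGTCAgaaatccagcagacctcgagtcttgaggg

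ZMAT3 (ENSG00000172667, chromosome 3 from 179017223 to 179072279, minus strand) encodes a zinc finger protein that binds RNA and is induced by p53. Its levels were 37.5, 39.1 and 37.9 CPM in DMSO and 41.9, 41.3 and 41.3 CPM with AS1842856. Every treated library was above every control library, by a small margin. Its log2 fold change was 0.12 (standard error 0.06, 95% interval from -0.00 to 0.25), which missed the threshold (edgeR adjusted p = 0.0918).

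TP53INP1 (ENSG00000164938, chromosome 8 from 94925972 to 94949411, minus strand), a stress protein that works with p53 in cell death and also in autophagy, was the gene of the 9 that rose. It was at 26.5, 24.6 and 22.9 CPM in DMSO and at 31.4, 30.1 and 35.0 CPM with AS1842856. The lowest treated library was above the highest control. Its estimated log2 fold change was 0.38 (standard error 0.08, edgeR adjusted p = 3.94e-06), 130% of the control. NDUFAF6, which lies across TP53INP1 on the opposite strand with 0 shared exonic bases, had 107% as many counts and went the other way, from 32.7 ± 0.461 to 28.3 ± 1.39 CPM (log2 fold change -0.21).

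TP53INP2, its relative in autophagy, rose as well. It went from 33.2, 31.8 and 31.2 CPM to 58.6, 61.4 and 62.1 CPM, with an estimated log2 fold change of 0.92 (standard error 0.06, edgeR adjusted p = 8.22e-36). The opposite-strand gene NCOA6 has 182% as many counts as TP53INP2. Per length, TP53INP1 was the lesser of the pair in every library, with 35.3% to 37.3% of their summed FPKM in DMSO and 26.7% to 29.6% with AS1842856, and the sum went from 11.9 ± 0.562 to 19.9 ± 0.731 FPKM.

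The sestrins bind the GATOR2 complex and hold back mTORC1 when amino acids are scarce or the cell is stressed. SESN1 (ENSG00000080546, chromosome 6 from 108986437 to 109094819, minus strand), a p53-inducible member, was at 11.8, 11.3 and 10.8 CPM in DMSO and at 10.7, 10.5 and 9.70 CPM with AS1842856. The treated libraries all lay just below the controls. The log2 fold change of -0.14 was nevertheless close to its standard error of 0.12 (95% interval from -0.36 to 0.09, edgeR adjusted p = 0.322).

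SESN3 (ENSG00000149212, chromosome 11 from 95165513 to 95232541, minus strand), known as a FOXO target in other cells, was barely expressed. It had 24, 21 and 27 counts in DMSO and 22, 15 and 13 counts with AS1842856, or 1.09, 1.37 and 1.45 against 1.32, 0.657 and 0.729 CPM. Replicates B and C of AS1842856 were lower than the controls and replicate A was within them. The log2 fold change was -0.55 with a standard error of 0.36 (95% interval from -1.26 to 0.16, edgeR adjusted p = 0.191), and a change of this size was not detectable at this depth.

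SESN2, the stress-induced leucine sensor, was the sestrin that changed. Its level was 18.1, 14.9 and 16.6 CPM in DMSO and 28.1, 28.9 and 27.5 CPM with AS1842856, an estimated log2 fold change of 0.76 (standard error 0.08, edgeR adjusted p = 4.80e-16). SESN2 held 65.0% to 68.4% of the sestrin FPKM in DMSO and 78.7% to 80.2% with AS1842856, and SESN1 held 29.9% to 33.1% and 19.1% to 20.1%. The summed sestrin FPKM went from 7.07 ± 0.513 to 10.2 ± 0.296. The log2 FPKM ratio of SESN1 to SESN3 differed by -0.04 between groups (two-sided exact permutation p = 0.60, adjusted p = 0.60 over 4 pairs), and the sign turned with a smaller pseudocount, at 0.15.

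BTG2 (ENSG00000159388, chromosome 1 from 203305491 to 203309602, plus strand), an antiproliferative protein that recruits the CCR4-NOT deadenylase to RNA and a classical p53 target, was nearly silent. It had 6, 4 and 4 counts in DMSO and 3, 11 and 5 counts with AS1842856, and it did not pass the filter on low counts. The ranges overlap, and no fold is given. Its relatives were better expressed and went in different directions. BTG1, which FOXO factors are also known to induce, fell from 34.3, 38.8 and 33.1 to 14.2, 12.4 and 12.3 CPM (log2 fold change -1.45, standard error 0.09, edgeR adjusted p = 3.75e-42). TOB1 and TOB2 fell with log2 fold changes of -0.61 and -0.21, while BTG3 rose with one of 0.37, from 55.6 ± 2.18 to 71.7 ± 2.82 CPM. BTG4 had 1 count in all. The summed FPKM of the 6 genes was 53.2 ± 0.727 in DMSO and 51.3 ± 0.720 with AS1842856.

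**Figure D3:**
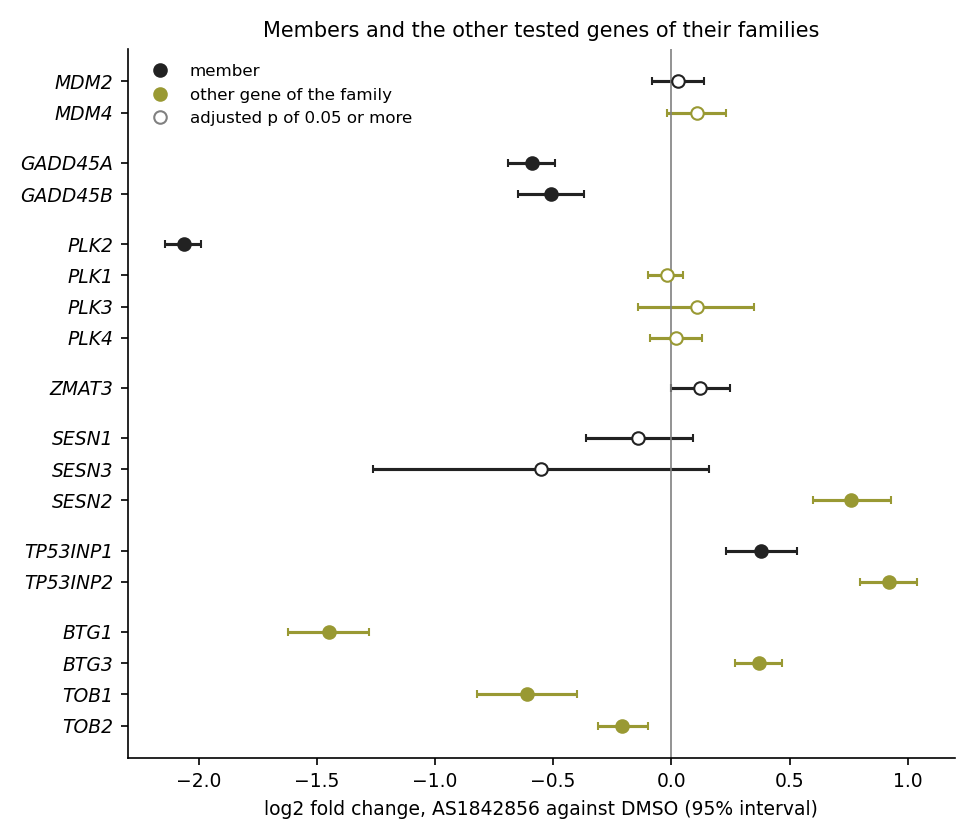
Log2 fold changes of AS1842856 against DMSO by edgeR with 95% intervals, for the 8 tested genes (black) and the 10 tested relatives (olive), grouped by family; open circles have an adjusted p of 0.05 or more. PLK2 stands at -2.06 beside relatives near 0, GADD45A and GADD45B lie close together below 0, and BTG1, TOB1 and TOB2 lie on the opposite side from BTG3.

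Over the 13 relatives of the 9 genes, 10 were tested, of which 3 rose and 3 fell (60% called, against 56.0% of all genes tested), with a median log2 fold change of 0.06. Relatives of a changed gene therefore went with it (TP53INP2), did not pass the test (PLK1, PLK3 and PLK4) or were not expressed (GADD45G). Relatives of genes that did not pass the test included SESN2, which rose.

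CDKN1A, which encodes the cell cycle inhibitor p21 and is the best-known p53 target, went from 6.60, 7.94 and 8.02 to 9.06, 10.6 and 9.37 CPM, with an estimated log2 fold change of 0.38 (standard error 0.13, edgeR adjusted p = 0.00726). Thus CDKN1A rose slightly, while MDM2, also a p53 target, gave no detectable change.

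CDKN1A belongs to a list of 26 p53 target genes. Of 22 tested, CDKN1A included, 7 rose and 4 fell (50% called, against 56.0% of all genes tested), and the median log2 fold change was 0.02. The largest increases were in genes of cell death: FAS, a death receptor, went from 14.4 ± 1.80 to 47.4 ± 2.05 CPM (log2 fold change 1.71, edgeR adjusted p = 3.08e-59), and PMAIP1, which encodes NOXA, from 9.71 ± 1.21 to 17.4 ± 0.472 CPM (0.86, edgeR adjusted p = 3.16e-13). The largest decreases were in RPS27L, a ribosomal protein S27 relative, from 54.8 ± 0.991 to 22.4 ± 1.31 CPM (-1.29), and in GDF15, a secreted stress cytokine, from 6.92 ± 0.912 to 3.5 ± 0.453 CPM (-1.0). FAS and RPS27L lie across from ACTA2 and LACTB, of which the first has nearly as many counts as FAS and the second has 127% of those of RPS27L.

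Among 17 genes of the p53 family and its regulators, 16 were tested, 5 rose and 4 fell (56.2% called), with a median of 0.04. ATF3, a stress-induced factor that can stabilize p53, rose from 13.7 ± 1.47 to 30.2 ± 1.5 CPM (log2 fold change 1.14), and TP53RK, a kinase reported to act on p53, rose by 0.20. The p53-binding proteins of the ASPP family were divided: the decreases included PPP1R13L (iASPP, an inhibitor, -1.21) and PPP1R13B (ASPP1, an activator of p53 in cell death, -1.04), while TP53BP2 (ASPP2), named after its values were seen, rose by 0.20. TP63, named after its values were seen, had 28, 21 and 15 counts in DMSO and 4, 7 and 3 counts with AS1842856.

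All 22 damage sensing and checkpoint genes were tested, of which 4 rose and 8 fell (54.5% called), with a median of -0.00. CHEK2, the kinase that relays the signal of double-strand breaks, fell from 39.6 ± 1.96 to 21.4 ± 0.311 CPM (log2 fold change -0.88, edgeR adjusted p = 2.27e-25), and CDC25C, the phosphatase that admits cells to mitosis, from 39.0 ± 1.08 to 18.6 ± 0.953 CPM (-1.07). The increases were small, with the largest in RAD1 (0.27) and TOPBP1 (0.26), which act in the ATR pathway. CDC25C overlaps FAM53C on the other strand, which has 377% as many counts.

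Repair genes also moved in both directions. Of 18 nucleotide excision repair genes, 17 were tested, 2 rose and 5 fell (41.2% called, median -0.07). The deepest falls were in ERCC6, which encodes the transcription-coupled repair factor CSB (22.9 ± 0.426 to 8.02 ± 0.724 CPM, log2 fold change -1.52), and ERCC2, which encodes the XPD helicase of TFIIH (233.3 ± 7.48 to 99.4 ± 3.19 CPM, -1.23). ERCC3, the other TFIIH helicase, rose by 0.30. Of 25 double-strand break repair genes, 23 were tested, 4 rose and 4 fell (34.8% called, against 56.0% of all genes tested; median 0.02), and the changes were small, from -0.39 for RBBP8 and BRIP1 to 0.37 for XRCC3, with PALB2 at 0.29. XPC and DDB2 are in both the excision repair and the p53 target list.

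The partners of the GADD45 proteins and the machinery around the sestrins and BTG2 were read in the same way. Of 13 GADD45 partners, all tested, 4 rose and 3 fell (53.8% called, median 0.05). CDKN1A is among the 4 that rose and is also counted in the p53 target list. MAP2K4, a kinase upstream of JNK, rose from 52.1 ± 2.89 to 88.5 ± 5.38 CPM (log2 fold change 0.77), MAPK11, a p38 kinase, fell from 10.7 ± 0.337 to 3.66 ± 0.834 CPM (-1.56), and PCNA fell slightly (-0.16). Of 14 genes of sestrin and mTORC1 sensing, 5 rose and 3 fell (57.1% called, median 0.03), among them PRKAA2, a catalytic subunit of AMPK (0.86), DEPDC5 of GATOR1 (0.40), and MIOS and WDR59 of GATOR2 (-0.43 and -0.24). GATOR2 did not move as a whole: SEH1L rose by 0.26, and SEC13 (0.00) and WDR24 (-0.11) did not pass the test. SEH1L, SEC13 and WDR24 were named after their values were seen. With limma on log2(FPKM + 1), 4 genes of the sestrin and mTORC1 list passed in place of 8. Of 14 genes of the CCR4-NOT and PAN deadenylases and their partner PABPC1, 5 rose and 3 fell (57.1% called, median 0.02), with CNOT10 at 0.47, PABPC1 at 0.46, CNOT6L at -0.54 and CNOT2 at -0.43.

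Some of these values are uncertain because reads could be shared. Opposite-strand neighbours of RAD1 (BRIX1), WDR59 (ZNRF1), XRCC3 (KLC1) and PPP1R13B (ZFYVE21) have 143%, 110%, 164% and 300% as many counts as the named gene. Those of CHEK2 (HSCB) and PPP1R13L (CD3EAP) have 27.9% and 64.5% as many. RPS27L and PABPC1 have close relatives and processed copies in the genome, to which their reads could also be assigned.

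**Figure D4:**
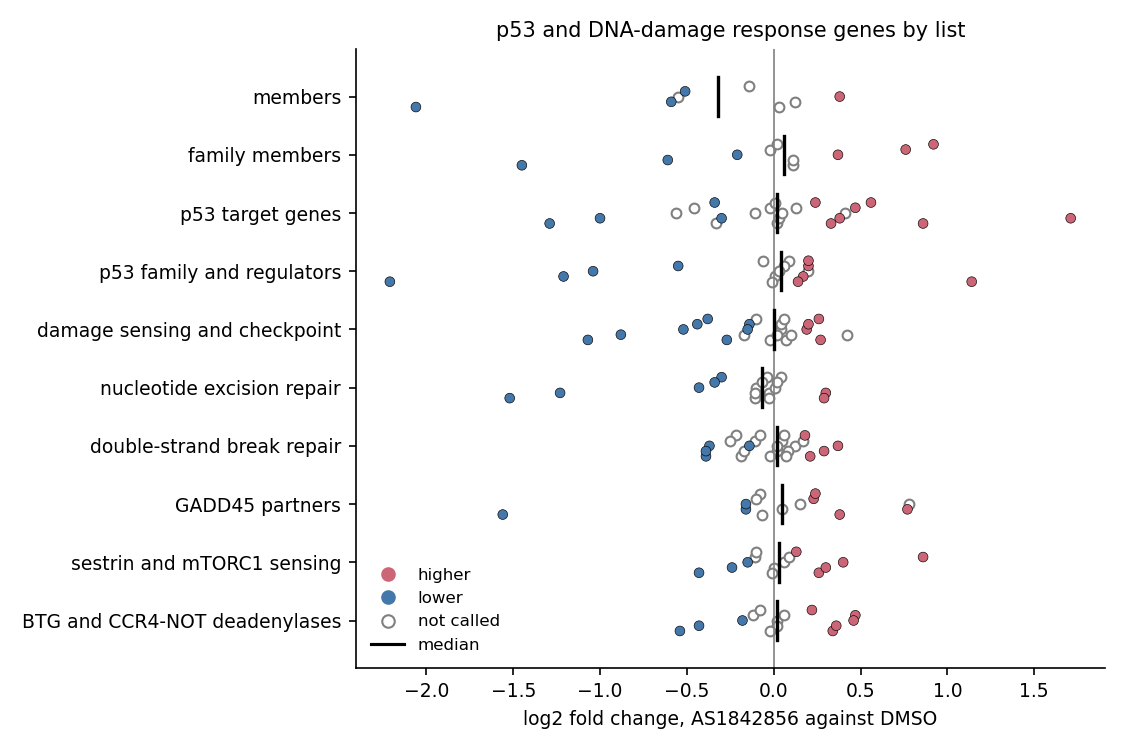
Log2 fold change of AS1842856 against DMSO for every tested gene of the 9 genes, their relatives and the 8 pathway lists; each circle is 1 gene, filled where the edgeR adjusted p is under 0.05, and a black bar marks the median of the list. The medians of the pathway lists lie between -0.07 and 0.05, with called genes on both sides of 0 in every list.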

How the data were processed

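RNA-Seq libraries of BT549 cells, 3 treated with DMSO and 3 with AS1842856, were grouped by the sample labels. The authors used STAR for mapping. They deposited a table of raw counts for each gene, which was not normalized, and FPKM values for 25015 genes. The submitters' processing notes name CASAVA, Bowtie 0.12.2 and GRCh38 (hg38). The counting tool, the annotation and the use of strand are not given in the sources used here. All 58735 gene identifiers were those of GENCODE 29, from which symbols and positions were taken.

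Counts were analysed with edgeR 4.0.16 in R 4.3.3. Genes were kept by filterByExpr (minimum count 10, minimum total 15), scaled by TMM (factors 0.995 to 1.01) and tested with glmQLFit (robust) and glmQLFTest, with Benjamini-Hochberg adjustment over all genes tested (threshold 0.05). The standard error was the log2 fold change divided by the square root of F. The common biological coefficient of variation was 0.0374. Replicate pairs differed by 2.36 to 3.27 times the counting noise (chi-square per degree of freedom), so that no library was counted as a duplicate. Floors of 3 counts cover counting error only, because PCR copies were not told apart by molecular identifiers. Ratios of related genes were compared on log2(FPKM + 1) by exact permutation over libraries. The test was checked on simulated counts with 200 changed genes. That is far fewer than the 8029 genes called in these data, and its behaviour with so many changes was not checked.

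The genes and lists were chosen with earlier results of these data known, the lists were written from general knowledge, and no set test was made. In the text stand all 9 genes, their relatives and CDKN1A, and from each list the 2 largest increases and 2 largest decreases among genes that passed the test with a mean of at least 1 CPM. Results of some single genes are not given here. The alternatives were DESeq2 1.42.0, its size factors in edgeR, library totals, leaving out the filter, a minimum mean of 50 counts, limma 3.58.1 on log2-transformed FPKM with a pseudocount of 1 or 0.1 (mean FPKM 0.5 or more) and, with a pseudocount of 1, unfiltered, the replicate letter as a block and each library left out. Promoter letters are those of RefSeq (GRCh38.p14).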

Additional observations from a re-analysis of the deposited data

How the results depend on the processing

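Of the 9 genes, the same number passed the test (4, of which 1 higher and 3 lower) under each of the 9 alternatives with all libraries and with each library left out. Among the 48 fold changes with a library left out, 47 kept their direction and side of the threshold, and MDM2 alone turned, to -0.03 without AS1842856 replicate C (range -0.03 to 0.08). The ranges were -2.09 to -2.05 for PLK2, -0.62 to -0.54 for GADD45A, -0.56 to -0.42 for GADD45B, 0.31 to 0.44 for TP53INP1 and -0.90 to -0.35 for SESN3. Genes called over the whole table numbered 8029, and between 6523 and 8030 under the alternatives. The sestrin and mTORC1 list went from 8 called genes to 4 with limma on log2(FPKM + 1), to 4 with log2(FPKM + 0.1) and to 3 with limma without the filter on FPKM, and the cause was not tested. The log2 ratio of SESN1 to SESN3 turned to 0.15 with log2(FPKM + 0.1) and to 0.17 with log2(CPM + 1), and SESN3, which fell out of the fits that required a mean of 50 counts or a mean FPKM of 0.5, is too low for its direction to be read at this depth.

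The letters A, B and C gave no clear sign of pairing the libraries. Deviations of same-letter libraries from their group means correlated by 0.042, -0.012 and -0.003, and for B and C another letter correlated better. Correlations this small cannot settle whether the libraries were paired in culture. The fit with the replicate block called 7862 genes and 4 of the 9 genes (PLK2 -2.06, GADD45A -0.58), and it ended no call among the 9. Over the pathway lists it moved the count for damage sensing and checkpoint genes alone, from 12 to 11.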
